A study of Mus musculus with 6 samples.

Results

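The genes of the cytosolic ribosomal proteins were examined in CX3CR1-EGFP+ cells sorted from the calvaria of mice with LPS-induced bone destruction. Members were all rows whose symbol begins with *Rps* or *Rpl* followed by a digit, together with *Rpsa*, *Rplp0*, *Rplp1* and *Rplp2*. Symbols of the S6 kinases (10 rows) and symbols containing -ps, which mark processed copies (6 rows), were left out. This rule found 88 of the 24346 gene symbols in each table. Of these, 31 encode proteins of the small (40S) subunit, 43 encode proteins of the large (60S) subunit, 3 encode the P stalk, 10 are paralogs or retrogenes and 1, *Rps19bp1*, encodes a protein that binds a ribosomal protein and is not itself one. *Rpl10l* was listed at 0 in every mouse. The other 87 reached 1 FPKM in at least 1 mouse and were tested, among 11301 tested genes. FPKM (fragments per kilobase of transcript, scaled to the number of mapped fragments) are levels per transcript length, and SE is the standard error of a log2 fold change.

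RNA was measured by RNA-Seq in 6 CX3CR1-EGFP knock-in mice, in which EGFP is expressed from the *Cx3cr1* locus, and EGFP+ bone marrow cells of the calvaria were sorted as osteoclast precursors. All 6 mice received LPS (20 mg/kg) in the calvarial periosteum. In the JAK inhibitor group (3 mice), ABT-317, which is selective for JAK1, was given orally at 60 mg/kg in 2 doses per day over 5 days, and the vehicle group (3 mice) was given the carrier on the same schedule. Age and sex are not given for these mice, an untreated group without LPS was not analysed here, and the sample titles number the mice within each group without pairing them.

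Ribosomes are built from ribosomal RNA and a set of proteins made in near equal numbers, and their mRNAs are among the most abundant in dividing cells. Many of these mRNAs begin with a pyrimidine-rich tract, the terminal oligopyrimidine (TOP) motif, through which mTOR signaling controls their translation. Their genes have left many processed copies in mammalian genomes, and some copies are transcribed as retrogenes.

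The deposited FPKM summed to between 688372 (JAK inhibitor-treated mouse 2) and 775790 (vehicle-treated mouse 1), and read depth is unknown. The monocyte receptor *Csf1r* was at 355 to 422 FPKM and *Cx3cr1* at 15.5 to 36.1 FPKM in the 6 mice. Of 14 monocyte and macrophage markers, 11 were lower with JAK inhibitor and 3 higher, with a median log2 fold change of -0.47. At an unadjusted p under 0.05 in limma, 7 were lower (50%, against 9.4% of all tested genes) and 0 higher (against 6.57%). The log2 fold changes of *C1qb*, *Mertk*, *Fcgr1* and *Cd14* were -1.78, -1.57, -1.15 and -0.83. Those of *Csf1r*, *Ccr2*, *Ly6c2* and *Cx3cr1* were -0.034, 0.015, 0.18 and 0.36. Granulocyte genes were also high in the sorted cells, with 19170 to 26595 FPKM summed over 14 neutrophil markers. Of these 14, 7 were lower and 7 higher with JAK inhibitor. At an unadjusted p under 0.05 in limma, 4 were lower (28.6%, against 9.4% of all tested genes) and 4 higher (28.6%, against 6.57%). The summed level of 10 progenitor markers, of which *Elane* is also a neutrophil marker, was 4960 to 5239 FPKM with JAK inhibitor and 2222 to 3829 FPKM with vehicle, of which *Elane* made up 3713 to 4023 and 1003 to 2452 FPKM. Without *Elane* the sums were 1216 to 1326 FPKM with JAK inhibitor and 1219 to 1377 FPKM with vehicle. Most of each sum was *Ctsg*, at 1081.5 to 1227.9 FPKM over the 6 mice. Of the 9 tested progenitor markers, *Elane* included, 5 were lower and 4 higher. At an unadjusted p under 0.05 in limma, 1 was lower (11.1%, against 9.4% of all tested genes) and 3 higher (33.3%, against 6.57%). The summed level of 10 osteoclast markers was 148 to 154 FPKM with JAK inhibitor and 204 to 686 FPKM with vehicle, and *Calcr* was at 0 in all mice. All 9 tested osteoclast markers were lower, 6 of them at an unadjusted p under 0.05 in limma (66.7%, against 9.4% of all tested genes). Of 9 tested erythroid markers, 6 were higher, 3 of them at that threshold (33.3%, against 6.57%), and 3 were lower. The erythroid marker *Hba-a1*, higher at that threshold, was at 38.6 FPKM in JAK inhibitor-treated mouse 3 and at most 2.64 FPKM in the other mice. B cell markers stayed low (29 to 39 FPKM summed over 9 genes, with *Ms4a1*, *Ebf1* and *Pax5* at 0 in all mice). In sorted bulk samples fewer cells of a type and less RNA per cell cannot be told apart, and the part of this mixture in the values below was not tested.

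The ribosomal protein genes held a large and steady share of the summed FPKM. Their share, in order of mouse number, was 12.11%, 11.39% and 11.78% with JAK inhibitor and 11.51%, 11.33% and 11.56% with vehicle. The means were 11.8% ± 0.360 (SD, n = 3) and 11.5% ± 0.121 (SD, n = 3), a difference of 0.293 percentage points. The shares of the groups overlapped, and the difference was not tested. The ratio of the summed 60S to the summed 40S FPKM was 1.03 ± 0.0101 with JAK inhibitor and 1.01 ± 0.00872 with vehicle (SD, n = 3 each). The 40S sum counts *Rps27* without its retrogene *Rps27rt*, and the split between these rows varied from mouse to mouse (below). The ratio therefore depends on that split and is not read as a shift between the subunits.

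Of the 100 genes with the highest mean FPKM, 33 were members, and 38 of the 77 genes that encode subunit or stalk proteins had a mean of 1000 FPKM or more. The median level of these 77 core genes was 990.5 FPKM, against 11.6 FPKM over all tested genes. *Rpl41*, which encodes a very short basic protein of the large subunit, was the highest member, with 4068, 3371 and 3633 FPKM in JAK inhibitor-treated mice and 3713, 3577 and 3911 FPKM in vehicle-treated mice. It was followed by *Rps29* (2683 to 3259 FPKM over the 6 mice), *Rps18* (2265 to 2866), *Rpl32* (2355 to 2853) and *Rps19* (2277 to 2628), the gene most often mutated in Diamond-Blackfan anemia. The next levels were those of *Rpl35* (2147 to 2621 FPKM), whose protein lies at the exit tunnel, *Rpl13* (2240 to 2566) and *Rps27* (1623 to 2677). The ranges of neighbours in this order overlapped, except that *Rpl41* lay above *Rps29* in every mouse.

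The levels of the core genes were not equal: the highest and the lowest mean FPKM differed 90-fold. The part of reads shared with other genes (below) in the levels of single rows was not tested. *Rps15a*, which encodes a 40S protein, was the lowest core gene, with 50.1, 40.2 and 40.7 FPKM in JAK inhibitor-treated mice and 40.6, 36.1 and 39.6 FPKM in vehicle-treated mice, while no other 40S gene had a mean under 419 FPKM. *Rpl22*, a 60S gene known for its role in lymphocyte development, was the only other core gene with a mean under 100 FPKM. The order of levels was nearly the same in every mouse, with a Spearman rho over members of at least 0.966 between any 2 mice. Over the 77 core genes, the mean level had a rho of -0.215 with transcript length and -0.0984 with coding length, given as a description because these genes share libraries and FPKM itself divides by length.

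**Figure D1:**
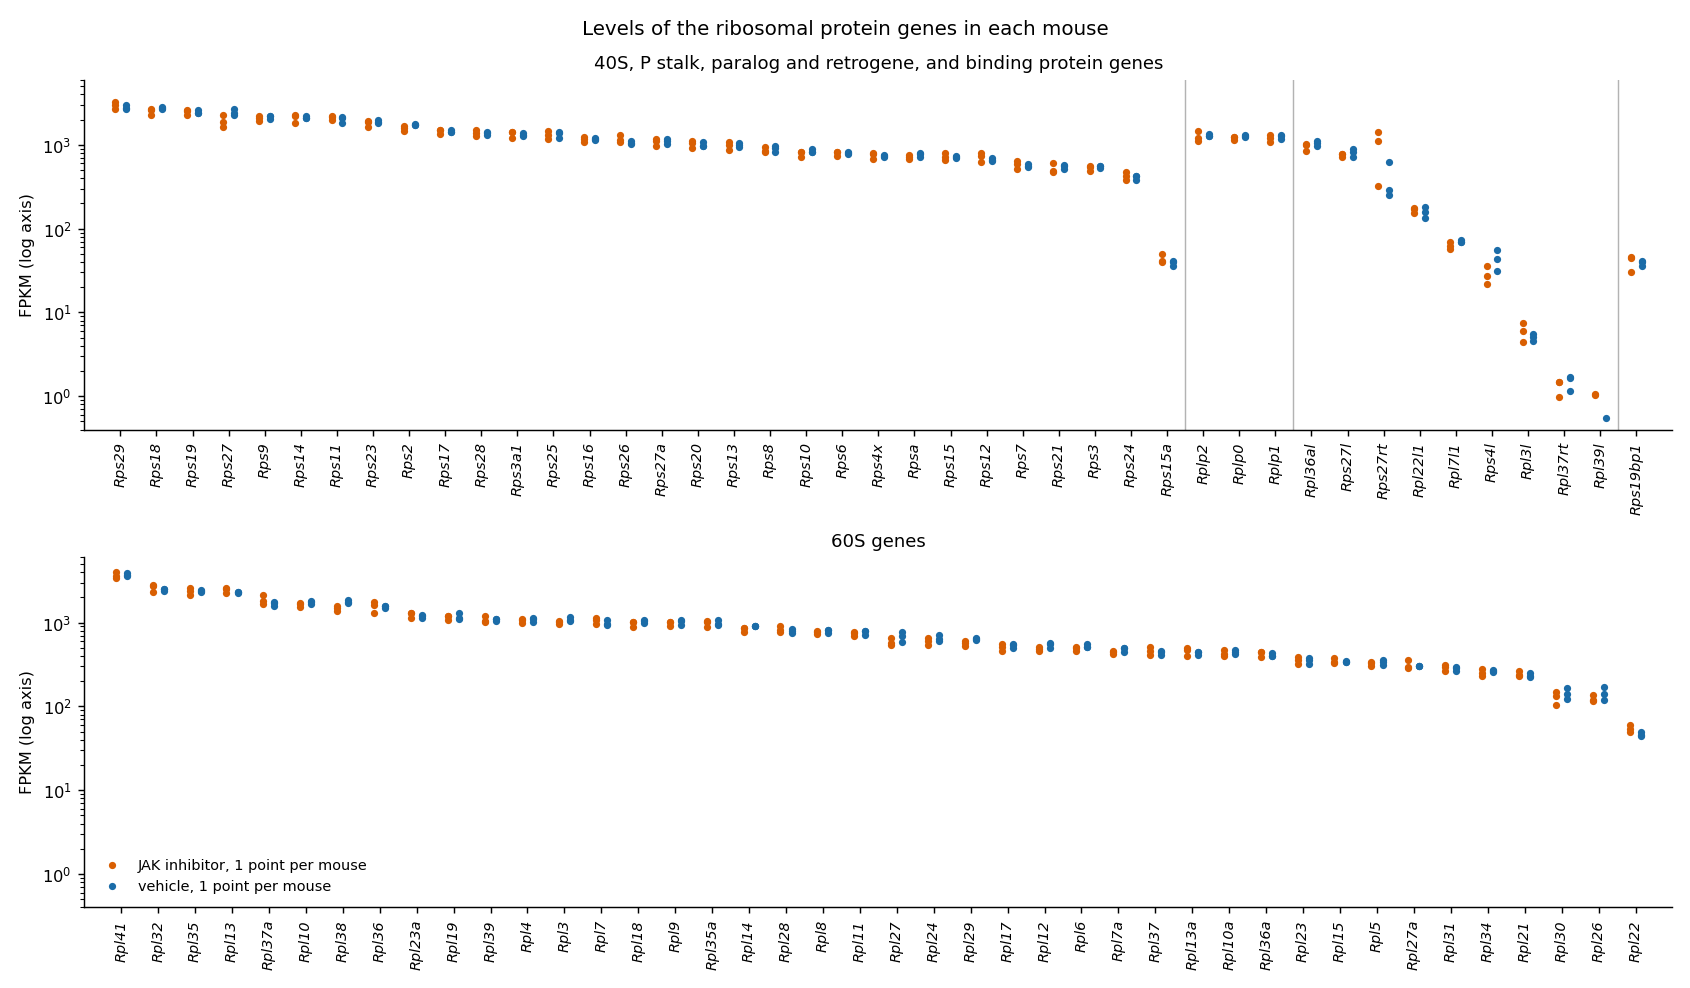
FPKM (log axis) of the ribosomal protein genes above 0 whose values are reported, each with 3 JAK inhibitor-treated mice (orange) and 3 vehicle-treated mice (blue), 1 point per mouse, ordered by mean level within each group of genes; values of 0 are not drawn. Most core genes lie between 100 and 4068 FPKM with points of both groups intermixed, *Rps15a* and *Rpl22* lie lower, and *Rps27rt* has the widest spread.

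To examine whether the JAK inhibitor altered these genes, each was compared between the groups on the log2(FPKM + 1) scale with limma. Of the 87 tested members, 0 had an adjusted p under 0.05 (Benjamini-Hochberg over all tested genes), against 0.133% of all tested genes. At an unadjusted p under 0.05, 3 members (3.45%) were lower with JAK inhibitor, against 9.4% of all tested genes, and 0 were higher, against 6.57%. All JAK inhibitor-treated mice lay below all vehicle-treated mice for 6 members (6.90%, against 12.1% of all tested genes) and above them for 1 member (1.15%, against 9.92%), and the groups overlapped for the other 80. The median log2 fold change was -0.020 over the members and -0.0035 over all tested genes, with 52 members lower and 35 higher. The log2 fold change was within 0.25 of 0 for 82 members (94.3%). The 95% interval held 0 for 84 of the 87, and it lay within 0.5 of 0 for 75 of the 77 core genes, and the median distance from the estimate to the end of the interval was 0.212 on the log2 scale.

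The sign of these small differences depended on the scaling between mice. Scaling moved the medians of the members and of the other genes in the same direction, but not always by the same amount. With quantile normalization the median log2 fold change was 0.024 over the members and 0.015 over the other tested genes. With each mouse scaled to an equal sum of FPKM, the median log2 fold change was 0.034 over the members and 0.045 over the other tested genes, in place of -0.020 and -0.0032, and 32 members were lower and 55 higher. At an unadjusted p under 0.05 in limma, 2 members were then lower (2.30%, against 6.7% of all tested genes) and 6 higher (6.90%, against 8.76%), in place of 3 and 0. The groups did not overlap for 5 members on the lower side (5.75%, against 8.63%) and 19 on the higher side (21.8%, against 13.5%). None had an adjusted p under 0.05 in limma with this scaling either.

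**Figure D2:**
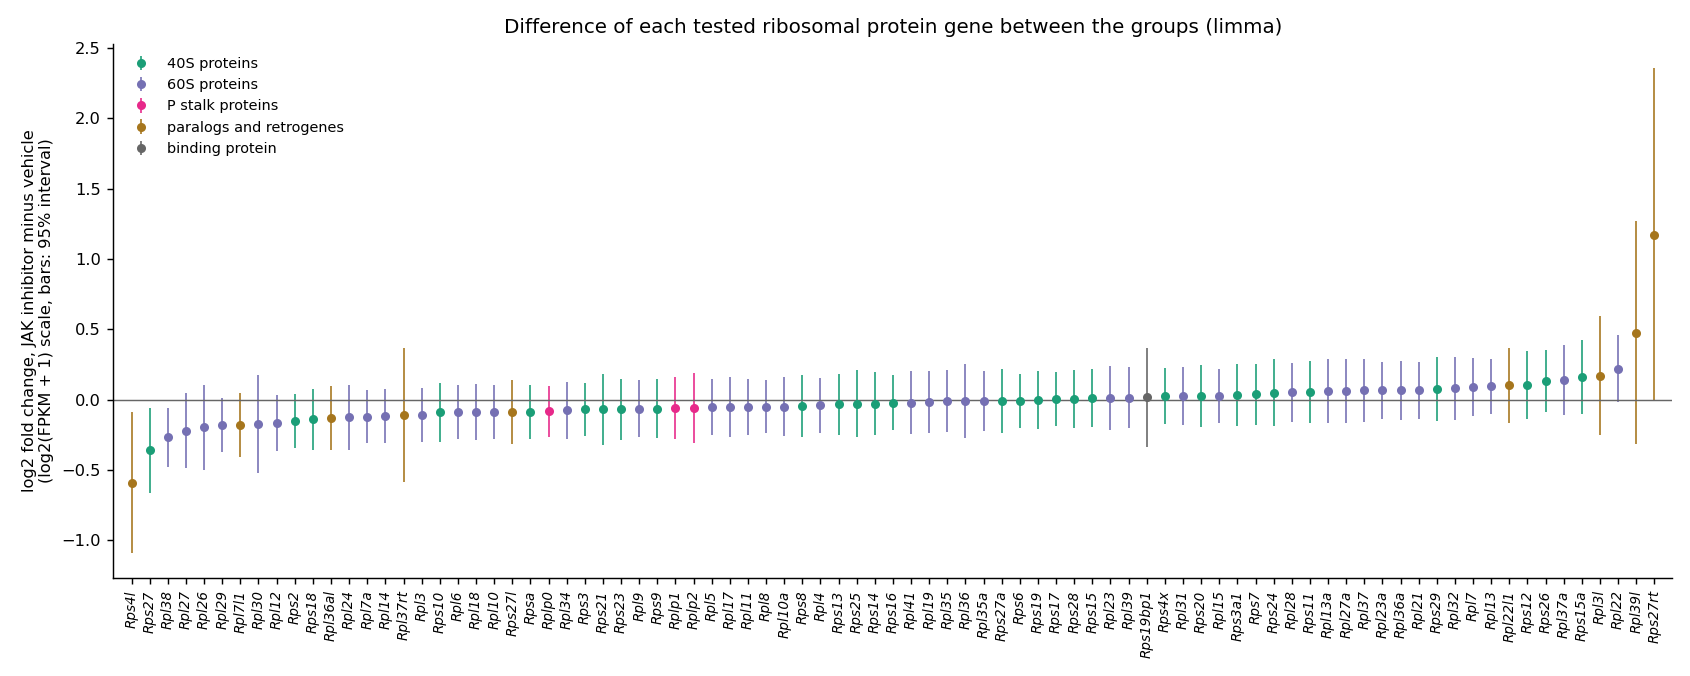
Log2 fold change (JAK inhibitor minus vehicle, log2(FPKM + 1) scale) of the tested members in ascending order, without those whose values are not reported, with 95% intervals from limma; colors give the group of genes. Values run from -0.59 (*Rps4l*) to 1.17 (*Rps27rt*), and the intervals of most members hold 0.

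The members moved together from mouse to mouse more than they differed between the groups. For each gene the deviation from its mean over the 6 mice was taken on the log2 scale. The median deviation of the members in mice 1, 2 and 3 was 0.106, -0.136 and 0.014 with JAK inhibitor and 0.051, -0.046 and 0.016 with vehicle. JAK inhibitor-treated mouse 2 had the lowest value of 67 members and was below the mean for 84, whereas JAK inhibitor-treated mouse 1 had the highest value of 49. The median deviation of all other tested genes, most of them at far lower levels, was between -0.011 and 0.013 in every mouse. Their summed FPKM, however, was also lowest in JAK inhibitor-treated mouse 2 (609388, against 652199 to 685957 in the other mice). The deviation of genes at a level similar to the members was not computed.

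Mice 1 and 2 of the JAK inhibitor group moved the comparison in opposite directions. Without JAK inhibitor-treated mouse 2, the median log2 fold change of the members was 0.043, against -0.0060 for the other tested genes, and 33 members were lower and 54 higher. The unadjusted limma p was then under 0.05 for 3 members on the lower side (3.45%, against 7.07% of all tested genes) and 5 on the higher side (5.75%, against 4.88%). The groups did not overlap for 7 members on the lower side (8.05%, against 17.1%) and 21 on the higher side (24.1%, against 14.9%). Without that mouse, 0 members had an adjusted p under 0.05 in limma. Without JAK inhibitor-treated mouse 1, the median was -0.072 over the members and 0.0017 over the other tested genes, and 68 members were lower and 19 higher. At an unadjusted limma p under 0.05, 3 members were then lower (3.45%, against 7.31% of all tested genes) and 0 higher (against 4.65%). The groups did not overlap for 16 members on the lower side (18.4%, against 16.5%) and 1 on the higher side (1.15%, against 15.1%), and 0 had an adjusted p under 0.05 in limma.

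**Figure D3:**
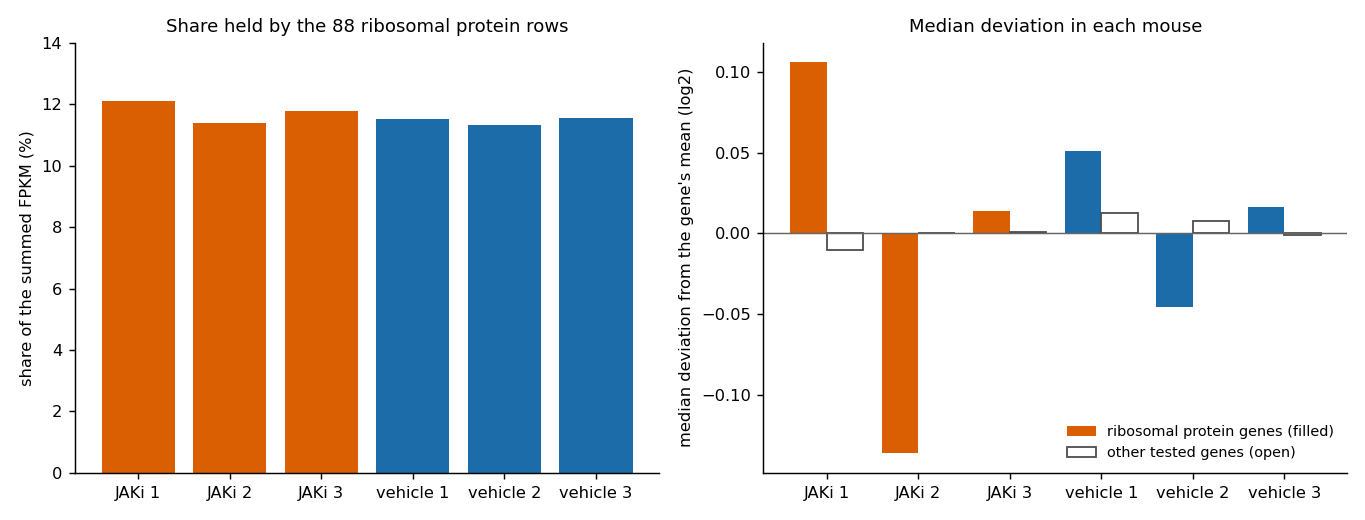
Left, share of the summed FPKM (%) held by the 88 member rows in each mouse, between 11.33% and 12.11%. Right, median deviation (log2) of the members (filled bars) and of the other tested genes (open bars) from each gene's mean over the 6 mice; JAK inhibitor-treated mice 1 and 2 lie at 0.106 and -0.136, while the open bars stay near 0.

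Within-group spread was small for most members. The median within-group SD on the log2 scale was 0.107 over the members and 0.102 over the core genes, against 0.116 over 1141 other genes with a mean of 100 FPKM or more and 0.189 over all other tested genes. The largest within-group SD were those of *Rps27rt* (0.945), *Rpl39l* (0.494) and *Rps4l* (0.371), all of them retrogenes or paralogs.

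Of the 31 genes of the 40S subunit, 18 were lower and 13 higher, with a median log2 fold change of -0.0089. *Rps27* was the only one with an unadjusted limma p under 0.05. *Rps18*, at the head of the small subunit, had 2671, 2265 and 2644 FPKM in JAK inhibitor-treated mice and 2773, 2697 and 2866 FPKM in vehicle-treated mice. All 3 of the former were lower than the latter, but the log2 fold change was -0.14 (SE 0.095, limma-adjusted p = 0.516). *Rps2*, singled out after its values were seen, had 1596, 1476 and 1675 FPKM against 1779, 1747 and 1744 FPKM with vehicle, without overlap and with an adjusted p of 0.42 in limma. *Rps19* did not separate the groups, with a log2 fold change of -0.00090 and a 95% interval from -0.21 to 0.21.

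*Rps26*, which encodes a protein at the mRNA exit site, had 1324, 1076 and 1130 FPKM with JAK inhibitor and 1118, 1055 and 1033 FPKM with vehicle. The groups overlapped, with a log2 fold change of 0.13 (SE 0.098, limma-adjusted p = 0.546). *Rpsa*, which encodes a 40S protein also known as the laminin receptor, had 756, 672 and 727 FPKM against 779, 720 and 790 FPKM with vehicle. Its log2 fold change was -0.087 (95% interval from -0.28 to 0.11), with overlapping groups. *Rps15a*, the lowest core gene, had a log2 fold change of 0.16 (SE 0.12, limma-adjusted p = 0.533).

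Of the 43 genes of the 60S subunit, 26 were lower and 17 higher, with a median log2 fold change of -0.020. *Rpl38*, whose protein is known for its role in the translation of Hox mRNAs and in the patterning of the skeleton, had the smallest p of all members. It had 1485, 1360 and 1587 FPKM in JAK inhibitor-treated mice and 1878, 1702 and 1750 FPKM in vehicle-treated mice. Every JAK inhibitor-treated mouse lay below every vehicle-treated mouse. The log2 fold change was -0.27 (SE 0.092, 95% interval from -0.47 to -0.060), the unadjusted limma p was 0.0173 and the adjusted p was 0.21. By exact permutation (2-sided) p was 0.1, the smallest value that this permutation test can give with 3 against 3 mice. Over the alternatives the log2 fold change stayed between -0.32 and -0.21.

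*Rpl29*, a heparin-binding protein of the large subunit, had 600, 522 and 574 FPKM with JAK inhibitor and 660, 621 and 637 FPKM with vehicle. These groups did not overlap, and the log2 fold change was -0.18 (SE 0.085, limma-adjusted p = 0.349). *Rpl14*, singled out after its values were seen, was also lower in all 3 JAK inhibitor-treated mice (768 to 871 FPKM against 902 to 911 FPKM), with an adjusted p of 0.535 in limma. *Rpl12* and *Rpl27* had log2 fold changes of -0.16 and -0.22 with overlapping groups.

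On the higher side, *Rpl22* had 59.7, 49.3 and 53.5 FPKM with JAK inhibitor and 49.6, 44.1 and 45.0 FPKM with vehicle. The groups overlapped only in that JAK inhibitor-treated mouse 2 was just below vehicle-treated mouse 1, and the log2 fold change was 0.22 (SE 0.11, limma-adjusted p = 0.352).

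The most abundant 60S genes showed no separation of the groups. The log2 fold change was -0.020 for *Rpl41*, 0.080 for *Rpl32*, -0.012 for *Rpl35* and 0.095 for *Rpl13*. The SE were 0.099, 0.098, 0.097 and 0.085.

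The P stalk recruits the elongation factors to the ribosome and is built from *Rplp0*, which anchors it, and from the dimers of *Rplp1* and *Rplp2*. *Rplp0* had 1236, 1153 and 1252 FPKM with JAK inhibitor and 1285, 1325 and 1247 FPKM with vehicle. *Rplp1* had 1330, 1094 and 1203 FPKM against 1311, 1175 and 1287 FPKM with vehicle. *Rplp2* had 1474, 1111 and 1222 FPKM against 1358, 1292 and 1291 FPKM with vehicle. The mRNAs of the 3 genes stood at nearly the same level per length, and the groups overlapped for each. Their log2 fold changes were -0.083, -0.060 and -0.060, with unadjusted limma p of 0.329, 0.556 and 0.604.

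The gene with the widest spread among the members was *Rps27rt*, a retrogene of *Rps27* on another chromosome. *Rps27* encodes a zinc-binding 40S protein and lies on chromosome 3 from 90212522 to 90213651 (minus strand, 4 exons, GENCODE M21 on GRCm38, the build named mm10 in the submitters' notes). *Rps27rt* lies on chromosome 9 from 114982366 to 114982739 (minus strand, 1 exon) and is annotated as protein coding. The coding sequences of both genes were compared base by base, because reads from identical sequence cannot be assigned to either gene. Each is 252 bases long without the stop codon, with 0 differences, and the shared sequence is printed once, with no base in capitals since none differs.
Rps27 and Rps27rt: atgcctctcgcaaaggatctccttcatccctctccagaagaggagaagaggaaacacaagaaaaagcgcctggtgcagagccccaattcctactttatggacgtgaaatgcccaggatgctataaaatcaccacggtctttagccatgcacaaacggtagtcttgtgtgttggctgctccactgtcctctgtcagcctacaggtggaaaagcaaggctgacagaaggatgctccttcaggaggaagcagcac

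All 178 stretches of 75 bases (the read length) within this coding sequence are the same in both genes. Over the whole transcripts, 98.5% of the 75-base stretches of *Rps27* and 90.3% of those of *Rps27rt* occur in the transcript of another annotated gene. A read of this length from most positions matches more than 1 gene.

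In order of mouse number, *Rps27rt* had 1431, 326 and 1107 FPKM with JAK inhibitor and 288, 251 and 621 FPKM with vehicle. JAK inhibitor-treated mice 1 and 3 were the highest, and JAK inhibitor-treated mouse 2 fell between vehicle-treated mice 1 and 3. The log2 fold change was 1.17 (SE 0.52, 95% interval from -0.011 to 2.35), with an unadjusted limma p of 0.0518, an adjusted p of 0.317 and an exact 2-sided permutation p of 0.2. Without JAK inhibitor-treated mouse 2 it was 1.82, and without JAK inhibitor-treated mouse 1 it was 0.76.

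*Rps27* went in the opposite direction, with 1623, 2299 and 1859 FPKM in JAK inhibitor-treated mice and 2677, 2374 and 2307 FPKM in vehicle-treated mice. Every JAK inhibitor-treated mouse lay below every vehicle-treated mouse. Its log2 fold change was -0.36 (SE 0.13, unadjusted p = 0.0238 and adjusted p = 0.234 in limma). The mice with the highest *Rps27rt* in each group had the lowest *Rps27* of that group.

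The sum of both rows did not share this difference. It was 3053, 2625 and 2966 FPKM with JAK inhibitor and 2965, 2625 and 2928 FPKM with vehicle, so that each group held 1 mouse at 2625 FPKM and 2 mice between 2928 and 3053 FPKM. The log2 fold change of the sum was 0.020 (SE 0.097, 95% interval from -0.20 to 0.24, adjusted p = 0.945 in limma). *Rps27rt* took 46.9%, 12.4% and 37.3% of the sum in JAK inhibitor-treated mice and 9.73%, 9.57% and 21.2% in vehicle-treated mice. The summed row was added after the values of both rows had been seen.

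**Figure D4:**
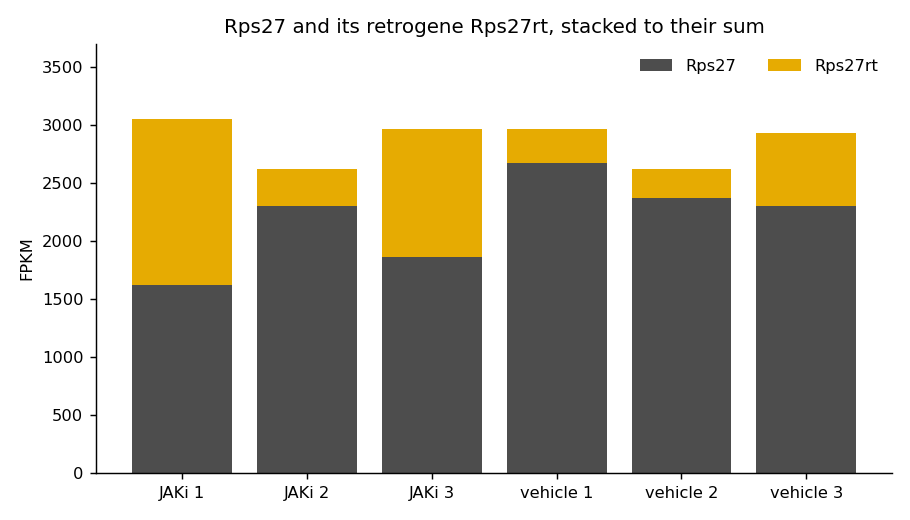
FPKM of *Rps27* (gray) and *Rps27rt* (yellow) stacked in each mouse, so that the height of a bar is their sum. The yellow part ranges from 251 to 1431 FPKM while the sum stays between 2625 and 3053 FPKM.

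*Rps27l*, a paralog known as a target of p53, shares only 4.39% of its 75-base stretches with other genes. It had 781, 711 and 788 FPKM with JAK inhibitor and 883, 831 and 715 FPKM with vehicle. Its groups overlapped, with a log2 fold change of -0.087 (95% interval from -0.31 to 0.14).

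The other paralogs differed widely in level. *Rpl36al* had 854 to 1118 FPKM over the 6 mice, above its parent *Rpl36a* (389 to 452 FPKM), and made up 69.1% ± 0.502 (SD, n = 3) of their sum with JAK inhibitor and 71.9% ± 0.750 (SD, n = 3) with vehicle. *Rpl22l1*, which can take the place of *Rpl22* in the ribosome, had 133 to 179 FPKM, again above its parent, with 75.6% ± 0.783 and 77.1% ± 2.08 of the sum (SD, n = 3 each). In both pairs the paralog was the higher gene in all 6 mice.

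In the other pairs the parent was higher in every mouse. *Rpl7l1*, linked to ribosome assembly, had 57.2 to 73.6 FPKM against 947 to 1130 FPKM for *Rpl7*. *Rpl3l*, known from striated muscle, had 4.49 to 7.40 FPKM against 962 to 1159 FPKM for *Rpl3*, whose protein lies at the peptidyl transferase center. *Rpl39l* was above 0 in 3 of the 6 mice and reached at most 1.07 FPKM, while *Rpl39*, which lines the exit tunnel, had 1007 to 1216 FPKM. *Rpl10l*, the paralog of *Rpl10* known from testis, was the member at 0 in every mouse, with *Rpl10* at 1546 to 1797 FPKM. The differences of *Rpl7*, *Rpl3*, *Rpl39* and *Rpl10* between the groups were 0.089, -0.11, 0.016 and -0.088 on the log2 scale, all with overlapping groups.

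*Rps4l* is a single-exon copy of the *Rps4* family on chromosome 6, annotated as a transcribed processed pseudogene. It had 21.8, 27.5 and 35.6 FPKM in JAK inhibitor-treated mice and 31.5, 43.2 and 55.3 FPKM in vehicle-treated mice. The groups overlapped, since JAK inhibitor-treated mouse 3 lay above vehicle-treated mouse 1. The log2 fold change was -0.59 (SE 0.22, unadjusted p = 0.0266 and adjusted p = 0.246 in limma), and leaving out each mouse in turn gave -0.80 to -0.40. *Rps4x*, the X-linked gene of the family, had 680 to 792 FPKM with JAK inhibitor and 723 to 753 FPKM with vehicle (log2 fold change 0.024). *Rpl37rt*, a copy of *Rpl37* with 90% of its 75-base stretches shared, stayed at 0.986 to 1.69 FPKM against 413 to 509 FPKM for *Rpl37*.

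Of the 6 left-out rows that contain -ps, only *Rpl34-ps1* was high. It had 1090, 906 and 1046 FPKM with JAK inhibitor and 1036, 1006 and 1052 FPKM with vehicle, and all of its 75-base stretches occur in another gene. It held 80.1% ± 0.582 of its sum with *Rpl34* in JAK inhibitor-treated mice and 79.5% ± 0.734 in vehicle-treated mice (SD, n = 3 each). The sum had a log2 fold change of -0.038 and overlapping groups. The other 5 rows had at most 4.61 FPKM.

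Shared sequence was common among the members. The median share of 75-base stretches found in another annotated gene was 48.0%, 39 members shared 50% or more, and 5 shared none. *Rpl10* (91.9%), *Rpl36a* (84.6%) and *Rps27* (98.5%) were at the upper end, and *Rpl3l*, *Rpl39l* and *Rps19bp1* were among those with none. Most of the other genes in these pairs had no row of their own in the deposited tables. *Rps19bp1*, the member that is not a ribosomal protein, had 45.7, 30.6 and 44.1 FPKM with JAK inhibitor and 36.1, 39.5 and 41.6 FPKM with vehicle, which overlapped (log2 fold change 0.018).

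The sequences around the start sites were searched for the pyrimidine run of TOP mRNAs. RefSeq promoters on GRCm38.p6 were found for 67 member genes, with 79 start sites in all. The letters CTTTC on the forward strand, in the 30 bases from 10 before to 20 after the start, were found in 16 of 79 member windows (20.3%) and in 3.74% of 32851 promoters in all. The letters CGGAAG or CTTCCG, a core of sites for ETS factors, were found on either strand in the 300-base promoter of 47 of 79 member start sites (59.5%) and in 16.9% of all promoters. Neither motif contains the other. These are counts of letters in the windows, not of bound sites. Windows of 30 bases are shown for *Rps27* and its retrogene, for which the split between rows varied, for *Rpl38*, the gene with the smallest p, and for a stalk gene, with CTTTC in capitals.
Rps27, chr3:90213629-90213658, minus strand: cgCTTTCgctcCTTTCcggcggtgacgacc
Rps27rt, chr9:114982720-114982749, minus strand: ttatcccttgCTTTCcggcggtgacgacct
Rpl38, chr11:114668570-114668599, plus strand: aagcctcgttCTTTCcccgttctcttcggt
Rplp2, chr7:141447641-141447670, plus strand: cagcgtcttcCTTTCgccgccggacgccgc

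The windows of *Rps27* and *Rps27rt* share a run of 19 bases that begins with CTTTC, although the genes lie on different chromosomes.

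Genes encoding 40S proteins under other symbols also had overlapping groups. *Fau*, a ubiquitin-like fusion gene of the small subunit, had a log2 fold change of -0.072 (852 to 1019 FPKM with JAK inhibitor, 904 to 1053 FPKM with vehicle). *Gnb2l1*, which encodes the scaffold protein RACK1, had -0.17 (469 to 519 and 516 to 594 FPKM). The adjusted limma p was 0.772 and 0.408.

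Other genes of translation were counted from lists for comparison, and 0 genes of these lists had an adjusted p under 0.05 in limma. Of 77 mitochondrial ribosomal protein genes, 16 (20.8%, against 9.4% of all tested genes) were lower and 0 (against 6.57%) higher at an unadjusted p under 0.05, and 24 (31.2%, against 12.1%) had all JAK inhibitor-treated mice below all vehicle-treated mice. Their median log2 fold change was -0.12, and it was -0.069 with each mouse scaled to an equal sum and -0.064 with an equal sum of the other genes. *Mrpl55* had the smallest p of this list, with 53.3, 55.5 and 48.5 FPKM with JAK inhibitor and 75.05, 65.5 and 81.7 FPKM with vehicle, without overlap (log2 fold change -0.49, adjusted p = 0.109 in limma). *Mrpl54*, *Mrpl20* and *Mrpl49* had log2 fold changes of -0.29, -0.37 and -0.33, also without overlap.

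Of 40 genes of ribosome biogenesis, 11 (27.5%, against 9.4% of all tested genes) were lower and 0 (against 6.57%) higher at an unadjusted p under 0.05 in limma, with a median log2 fold change of -0.19. Their FPKM summed to 1753 to 1763 with JAK inhibitor and 1921 to 2022 with vehicle. *Ncl*, which encodes the nucleolar protein nucleolin, had 48.5, 49.4 and 49.7 FPKM with JAK inhibitor and 68.9, 60.2 and 80.9 FPKM with vehicle (log2 fold change -0.49, adjusted p = 0.117 in limma). *Mrto4* (-0.36), *Polr1c*, a subunit of RNA polymerases I and III (-0.41), and *Nop58*, a protein of box C/D snoRNPs (-0.35), also had groups without overlap.

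Of 29 initiation factor genes, 11 (37.9%, against 9.4% of all tested genes) were lower and 1 (3.45%, against 6.57%) higher at an unadjusted p under 0.05 in limma. Their median log2 fold change was -0.15, and it was -0.096 with each mouse scaled to an equal sum and -0.091 with an equal sum of the other genes. *Eif2b2* (-0.51), *Eif6* (-0.34), which keeps 60S subunits apart from 40S subunits, and *Eif5a* (-0.30) were lower in all 3 JAK inhibitor-treated mice. *Eif4a2* was the gene on the higher side, with 67.8, 50.4 and 61.2 FPKM against 45.6, 38.5 and 32.7 FPKM with vehicle (log2 fold change 0.61, adjusted p = 0.122 in limma).

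Of 16 elongation and TOP mRNA genes outside the ribosome, 1 (6.25%, against 9.4% of all tested genes) was lower and 1 (6.25%, against 6.57%) higher at an unadjusted p under 0.05 in limma, with a median log2 fold change of 0.00020. *Pabpc1*, the cytoplasmic poly(A)-binding protein, had 144, 110 and 118 FPKM with JAK inhibitor and 100.1, 88.4 and 91.7 FPKM with vehicle, without overlap (log2 fold change 0.39, adjusted p = 0.161 in limma). *Npm1*, a nucleolar chaperone, had a log2 fold change of -0.22, also without overlap (adjusted p = 0.208 in limma).

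Of 15 tested genes of the mTOR and Myc pathways, 2 (13.3%, against 9.4% of all tested genes) were lower at an unadjusted p under 0.05 in limma and the median log2 fold change was -0.0096. *Larp1*, which binds TOP mRNAs, had 13.5, 11.8 and 17.4 FPKM with JAK inhibitor and 22.8, 22.3 and 19.7 FPKM with vehicle, without overlap (log2 fold change -0.58, adjusted p = 0.134 in limma). *Rptor*, a subunit of mTOR complex 1, had a log2 fold change of -0.71 at 1.41 to 5.91 FPKM, with overlapping groups. Whether the members differed from these lists in their response was not tested.

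**Figure D5:**
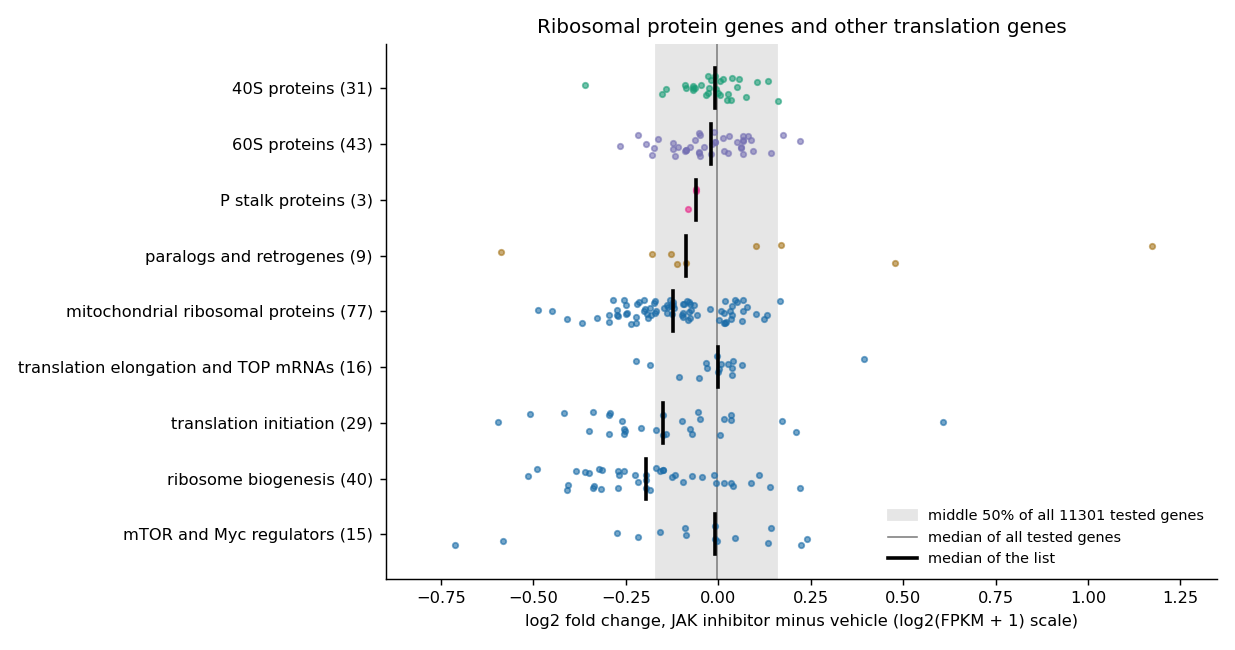
Log2 fold change (JAK inhibitor minus vehicle, log2(FPKM + 1) scale) of each tested gene, 1 point per gene, for the groups of ribosomal protein genes and for 5 lists of other translation genes; black bars are medians, the gray band holds the middle 50% of all tested genes. The 40S and 60S medians (-0.0089 and -0.020) lie near the median of all genes, and those of ribosome biogenesis (-0.19), initiation (-0.15) and mitochondrial ribosomal proteins (-0.12) lie below it.

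Introns of ribosomal protein genes carry small nucleolar RNAs, which guide the modification of ribosomal RNA. The annotation places 59 small nuclear and nucleolar RNA genes inside members on the same strand, of which 33, in 24 hosts, had a row. These are 65 to 149 bases long. They were listed at 0 in every mouse for 18 of the 33, and only 3 were above 0 in all 6 mice, of which *Snora65* in *Rpl12* and *Snora7a* in *Rpl32* were at 3.09 to 16.6 FPKM. Of the others, 12 were above 0 in some mice and at 0 in others, and for all of these but *Snord35a* mice of the same group were on both sides. *Snord35a* in *Rpl13a* was listed at 0 in the 3 JAK inhibitor-treated mice and at 19.9, 33.4 and 12.7 FPKM with vehicle, while *Snord33* in the same host was at 0 in vehicle-treated mouse 1 as well. These RNAs were named after their values were seen, and a 0 for a gene this short can be a failed estimate.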

How the data were processed

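RNA-Seq libraries of sorted CX3CR1-EGFP+ cells from 3 JAK inhibitor-treated and 3 vehicle-treated mice were analyzed; each mouse is 1 sample. The authors deposited 1 table of FPKM per mouse with 24346 gene symbols. The submitters' processing notes name TopHat2 2.0.13, Bowtie2 2.2.3, SAMtools 0.1.19 and Cufflinks 2.2.1 and the build mm10 without stating roles; the annotation, the treatment of reads with several matches and the scaling are not given in the sources used here. The study's methods name a stranded mRNA kit with 75-base single-end reads, whereas a SMART-Seq HT kit and Nextera libraries are given in the labels.

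Genes with 1 FPKM or more in at least 1 sample were kept, and log2(FPKM + 1) was compared with limma 3.58.1 in R 4.3.3 (trended empirical Bayes, all 6 samples, no covariate), with p-values adjusted by Benjamini-Hochberg over 11301 genes. Because of the pseudocount of 1, fold changes of low genes are understated. Exact permutation tests (2-sided) were run for single genes. The test was checked on simulated data with independent noise and planted changes larger than that of any member. The check therefore does not tell how small differences, or genes that move together, are handled. Depth is unknown, so no counting intervals are given. The members and lists were chosen with earlier results of these data known. Named genes are the 8 highest and 6 lowest members, the 6 smallest p in each direction, the stalk genes and *Rpsa*, paralogs and parents, ribosomal genes with other symbols, and up to 4 genes of each translation list; others are marked. The values of a few genes are not reported here, although they are part of the counts. The planned protein identity of paralogs was not computed. Sequences and positions came from GENCODE M21 on GRCm38 and RefSeq on GRCm38.p6; for each gene the transcript with the longest coding sequence was used. Alternatives were another pseudocount, filters, 4 scalings, no trend, sample weights, a replicate block and leaving out each mouse. Figures were drawn with matplotlib 3.10.9 and tables handled with pandas 2.3.3 (SciPy 1.17.1, NumPy 2.4.6, Python 3.11.15).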

Additional observations from a re-analysis of the deposited data

How the results depend on the processing

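In each of the alternatives, 0 members had an adjusted p under 0.05 in limma. With 3 mice per group and unknown depth, differences well under 0.21 on the log2 scale could not be resolved. That value is the median distance from the estimate to the end of the 95% interval (core genes), without adjustment for the number of genes. Larger differences did not reach the adjusted threshold either, such as *Rpl38* (-0.27, adjusted p = 0.21 in limma) and *Rps4l* (-0.59, adjusted p = 0.246 in limma). Reads shared between near-identical genes limit the values of single members.

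Members lower at an unadjusted p under 0.05 (3 as reported) numbered 1 without a filter and 1 without the trend, and between 1 and 3 with a mouse left out. Members higher at that threshold (0 as reported) numbered 1 with a pseudocount of 0.1, 1 without a filter, 1 with the stricter filter, 1 with sample weights, 8 with quantile normalization, 6 with each mouse scaled to an equal sum, 7 with an equal sum of the other genes, and 0 to 5 with a mouse left out. Members below all vehicle-treated mice (6 as reported) numbered 3 with an equal sum of the other genes and 7 to 16 with a mouse left out, the latter in part because fewer mice are compared. Members above all vehicle-treated mice (1 as reported) numbered 15 with quantile normalization, 3 with the median ratio, 19 with an equal sum, 20 with an equal sum of the other genes, and 1 to 21 with a mouse left out, the highest count being that without JAK inhibitor-treated mouse 2. With *Rps27* and *Rps27rt* summed, 2 members were lower at an unadjusted p under 0.05 in limma and 5 lay below all vehicle-treated mice. The share of all tested genes at these thresholds is given above for the equal sum and without JAK inhibitor-treated mouse 1 or 2. It was not computed for the other alternatives, whose counts are not read as a result about the members. The median log2 fold change of all members was -0.072 to 0.043 with a mouse left out.

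The sample titles state no pairing of the mice. Deviations of same-numbered mice correlated at 0.016, 0.054 and -0.00016 over all tested genes, which does not settle whether they shared a batch. With the replicate block, 4 members were lower and 1 was higher at an unadjusted p under 0.05, and the smallest adjusted p was 0.0721 in limma.

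Of the 54 genes named by rule, 42 kept their direction in all alternatives. *Rpl41*, *Rps19* and *Rpl35* turned positive with quantile normalization (0.089, 0.019 and 0.016), an equal sum (0.034, 0.053 and 0.042) and an equal sum of the other genes (0.039, 0.058 and 0.047), scalings that also moved the median of the other genes from -0.0032 to 0.015, 0.045 and 0.048; *Rps19* also did with the median ratio (0.0084). *Fau* turned to 0.013 with quantile normalization. *Rps27* turned to 0.020 when summed with *Rps27rt*. With a mouse left out, the range was -0.092 to 0.043 for *Rpl41*, -0.044 to 0.060 for *Rps19*, -0.083 to 0.061 for *Rpl35*, -0.085 to 0.20 for *Rps19bp1*, -0.13 to 0.0096 for *Rplp1*, -0.17 to 0.031 for *Rplp2*, -0.014 to 0.20 for *Rpl22l1*, -0.062 to 0.074 for *Rpl39*, -0.017 to 0.092 for *Rps4x*, -0.0070 to 0.14 for *Rpl37* and -0.14 to 0.0012 for *Fau*. The cause was not tested.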
